A study of Mus musculus with 5 samples.

Results

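Chemokine receptors steer leukocytes along gradients of small secreted proteins, and in bone marrow (BM) they set the balance between staying and leaving. CXCR4 holds hematopoietic cells near stromal cells that secrete its ligand CXCL12, and signals through other receptors oppose it: CXCR2 and its CXCL1 and CXCL2 ligands draw neutrophils toward blood, and CCR2 and its ligand CCL2 draw classical monocytes out. The transcripts of 8 such receptors are described here in mouse BM before and after the alkylating agent cyclophosphamide (CTX). They were chosen by gene symbol, 8 of the 31053 genes counted in the data: Cxcr4, the receptor of retention; Cxcr2 and Ccr1, receptors of neutrophil chemoattractants; Ccrl2, an atypical receptor that binds chemerin without signalling through G proteins; Ccr2 and Cx3cr1, receptors of monocytes; and Ccr7 and Cxcr3, which guide lymphocytes and dendritic cells to lymphoid tissue and to sites of interferon response. Cxcr4 and Cx3cr1 were also picked by the study, from these same libraries, as surface markers of neutrophil-like monocytes (NeuMo), so their pattern in sorted monocytes is not independent evidence for that use.

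RNA of single cells was measured in 5 libraries of BM cells. The study's methods give BALB/c mice aged 4 to 8 weeks. Whole BM, labelled CD45+, came from naive mice, from mice on day 2 after 150 mg/kg of CTX given intraperitoneally (D2 CTX), and from mice on day 7 after the same dose (D7 CTX), with equal cells of 3 mice pooled per library and dead cells depleted beforehand. CD11b+Ly6Chi monocytes were sorted from naive and CTX-treated BM. The labels give no day for the sorted CTX cells, which the text of the study's results places at day 7, and the number of mice behind each sort was not given in the sources used here. Naive mice were untreated. Each condition was 1 library, so no difference between conditions could be tested against the spread between mice or libraries, and no p-value is given. Every interval below is a 95% interval for counting error only. Values given 3 in a row belong to naive, D2 CTX and D7 CTX BM in that order.

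The libraries held 2223 to 8605 barcodes and 22694817 to 68459527 unique molecular identifiers (UMIs), each UMI marking 1 captured transcript. Of the barcodes, 1891 to 8290 per library were kept, those with 200 or more detected genes and a mitochondrial share of UMIs under 20%. The median depth of these cells was 3953.5, 3033.5 and 7189.5 UMIs in whole BM, against 10299 and 9694 in the sorted naive and CTX libraries. Cells were placed in classes by the UMIs of marker genes per 10000, with none of the 8 receptors among the markers, and 4.74%, 8.41% and 1.86% of the BM cells met more than 1 gate and were left out as possible doublets. A class is therefore a range of marker levels and not a proven cell type. The sets of cells called Ly6c2-low monocytes lay close to a gate in 41.7% to 62.2% of cells of whole BM, and their summed level of the non-classical monocyte genes Ace, Treml4, Spn and Eno3 was 142 CPM (UMIs of the genes per 1000000 UMIs of the cells) against 110 in Ly6c2-high monocytes of naive BM, so the name states the Ly6c2 gate and nothing else. Of 27994 barcodes, 68 occurred in more than 1 library, with 2 to 16 in a pair of libraries.

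On build GRCm38 the gene of Cxcr4 lies at chr1:128588199-128592293 on the minus strand and that of Cxcr2 at chr1:74153989-74161246 on the plus strand. Chromosome 9 holds Ccrl2 (chr9:111054486-111057519, minus), Cx3cr1 (chr9:119901616-120069879, minus), Ccr1 (chr9:123962124-123968692, minus) and Ccr2 (chr9:124101950-124113557, plus). Ccr7 lies at chr11:99144196-99155077 and Cxcr3 at chrX:101731535-101734269, both on the minus strand. Promoters, the 250 bases before an annotated start in RefSeq (GRCm38.p6), were found for 7 of the 8 receptors, all but Ccr7. The 4 printed below, 5′ to 3′ on the strand of the gene, belong to the receptors whose levels in neutrophils and sorted monocytes carry the comparisons that follow. Capitals mark matches to the motifs of NF-kB (GGG and CC with 5 bases of any kind between them), PU.1 (GAGGAA), NRF1 (GCGC on either side of AT) or the TATA box (TATAAA), each searched on both strands.
Cxcr4, chr1:128592300-128592549, minus strand: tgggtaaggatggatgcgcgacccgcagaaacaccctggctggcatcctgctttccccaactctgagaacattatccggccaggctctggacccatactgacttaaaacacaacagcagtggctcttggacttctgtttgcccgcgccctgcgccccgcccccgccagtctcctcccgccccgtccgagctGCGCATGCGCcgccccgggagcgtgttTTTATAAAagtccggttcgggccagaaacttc
Cxcr2, chr1:74153744-74153993, plus strand: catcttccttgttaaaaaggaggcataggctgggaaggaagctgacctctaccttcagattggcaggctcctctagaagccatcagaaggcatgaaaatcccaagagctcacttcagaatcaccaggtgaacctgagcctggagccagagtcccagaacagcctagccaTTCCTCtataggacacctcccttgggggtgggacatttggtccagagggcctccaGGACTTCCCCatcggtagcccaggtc
Ccr1, chr9:123968693-123968942, minus strand: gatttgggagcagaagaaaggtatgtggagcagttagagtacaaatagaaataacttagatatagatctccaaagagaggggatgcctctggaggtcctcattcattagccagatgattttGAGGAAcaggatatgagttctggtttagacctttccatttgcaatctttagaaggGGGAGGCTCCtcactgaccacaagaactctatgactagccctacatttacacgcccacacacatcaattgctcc
Ccrl2, chr9:111057519-111057768, minus strand: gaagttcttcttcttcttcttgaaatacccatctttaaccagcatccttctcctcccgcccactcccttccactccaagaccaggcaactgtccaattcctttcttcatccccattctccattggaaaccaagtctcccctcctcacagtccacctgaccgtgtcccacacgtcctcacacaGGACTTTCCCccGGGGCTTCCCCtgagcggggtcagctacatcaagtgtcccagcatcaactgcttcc
The Cxcr4 promoter had 61.2% G and C, held an NRF1 match 59 to 50 bases before the start, which 0.782% of 32851 mouse promoters also held, and had overlapping TATA box matches on both strands between 32 and 25 bases before it, a motif of 12.4% of promoters. It held no NF-kB match. NF-kB matches stood in 5 of the 7 promoters, those of Cxcr2, Ccr1, Ccrl2, Cx3cr1 and Cxcr3, with 3 matches in Ccrl2 within 68 to 46 bases of its most upstream start, the last 2 overlapping, but 45.8% of all promoters held at least 1. PU.1 matches, in 23.3% of promoters, stood in Cxcr2, Ccr1 and Cxcr3. A C/EBP motif (TTGCNNAA), in 9.56% of promoters, was found in none of the 7. A match is a string of letters and was not tested as a binding site.

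The receptors differed in the cells that held their UMIs in naive BM, although some shared a lineage. Cxcr4 was the most widely spread, with 408 CPM in MHC class II-low B lineage cells and 46.1 CPM in granulocyte-monocyte progenitors (GMP). It was lower still in MHC class II-rich myeloid cells, over 9 UMIs. Of its 6126 UMIs, 38.4% came from B lineage cells, 36.1% from the neutrophil lineage and 8.99% from monocytes. Cxcr2 and Ccr1 were concentrated in the neutrophil lineage, which held 88.4% and 81.4% of their UMIs. Monocytes held 71.0% of the Ccr2 and 78.1% of the Cx3cr1 UMIs. B lineage cells held 78.3% of the Ccr7 UMIs, and plasmacytoid dendritic cells held 40.5% of the Cxcr3 UMIs. These shares also follow the number of cells of each class, so fewer cells of a class and fewer transcripts per cell are separated only by the per-class levels below.

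**Figure D1:**
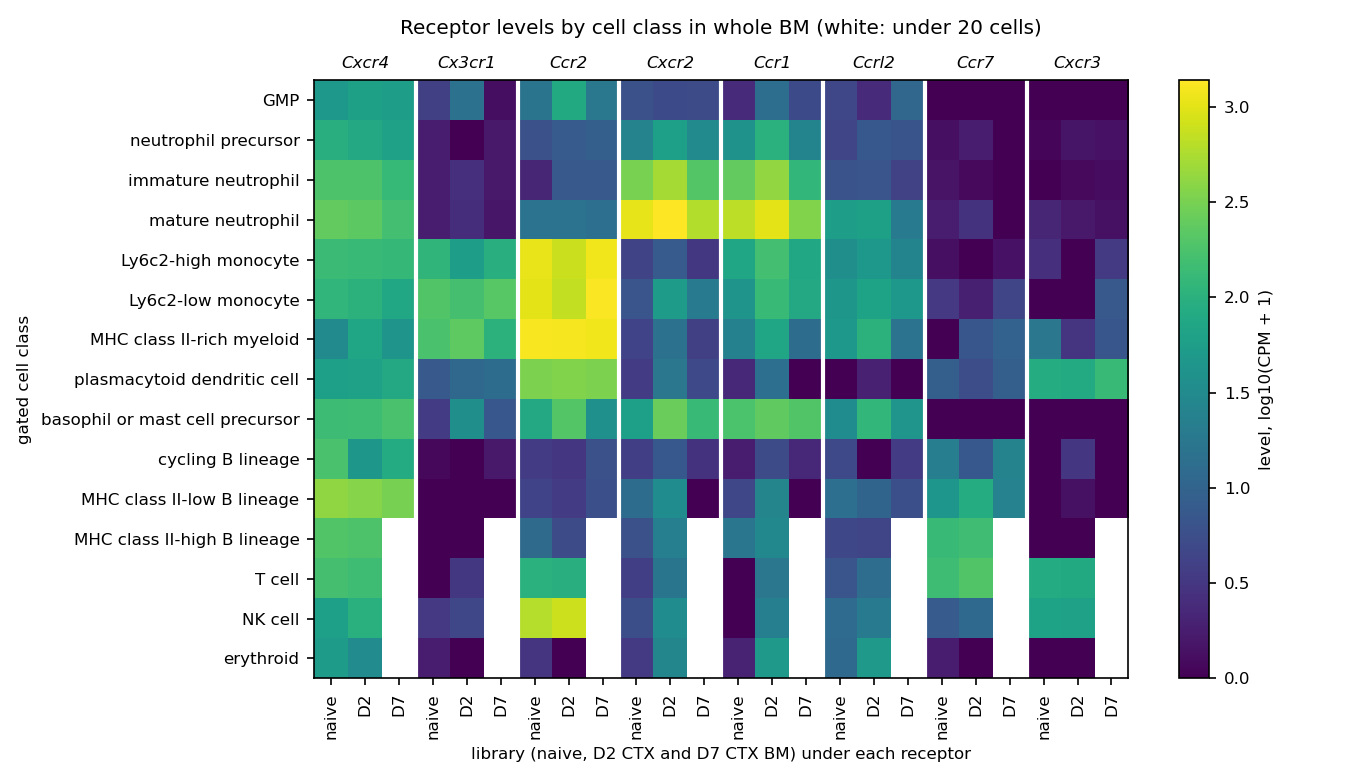
Level of the 8 receptors in 15 marker-gated classes of naive, D2 CTX and D7 CTX BM, as log10 of CPM plus 1 (colour), with white where a class held under 20 cells. Cxcr4 was present in every class shown for naive BM, whereas Cxcr2 and Ccr1 stood out in neutrophils, Ccr2 and Cx3cr1 in monocytes and MHC class II-rich cells, Ccr7 in B and T cells and Cxcr3 in plasmacytoid dendritic cells, T cells and NK cells.

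Cxcr4, the receptor for CXCL12, was highest in MHC class II-low B lineage cells in all 3 BM libraries. In these cells it stood at 408, 371 and 309 CPM, the last over 83 cells. At an equal depth of 1000 UMIs per cell, 33.4%, 30.5% and 28.4% of them had a Cxcr4 UMI, against 5.25% of naive erythroid cells, which served as the background of free RNA. The order in naive BM went on with mature neutrophils at 243 CPM, MHC class II-high B lineage cells at 195, immature neutrophils at 182, cycling B lineage cells at 170 and T cells at 163, and from mature neutrophils on each neighbour in this order overlapped the next within counting error. Cycling B lineage cells had 170, 44.8 and 84.6 CPM, with log2 ratios to naive BM of -1.92 (-2.62 to -1.30) for D2 CTX and -1.01 (-1.28 to -0.74) for D7 CTX. This class held 578, 24 and 103 cells, and in its D2 CTX comparison 15.8% of all genes that passed the filter on low counts were at least 1 log2 unit apart, 9.54% being lower in D2 CTX. At day 7 that share was 0.932%, with 0.709% lower. Within the B lineage of every BM library, cells that met the gate on the proliferation genes Mki67, Top2a, Stmn1 and Pclaf had less Cxcr4 than the others: 170 against 359, 44.8 against 306 and 84.6 against 294 CPM.

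In neutrophils Cxcr4 was lower at day 7. Mature neutrophils had 243, 219 and 156 CPM. Immature neutrophils, which still carry transcripts of specific granules, had 182, 184 and 124 CPM, and neutrophil precursors 92.5, 76.7 and 62.4. The D7 CTX level lay below both others in each of these 3 stages. The log2 ratio of D7 CTX over naive was -0.64 (-0.79 to -0.49) in mature, -0.55 (-0.67 to -0.42) in immature neutrophils and -0.57 (-0.69 to -0.45) in precursors, and relative to the median gene of the same cells, which was 0.14 log2 units lower in D7 CTX, the mature value was -0.50. At 1000 UMIs per cell 22.3%, 20.6% and 15.03% of mature neutrophils had a Cxcr4 UMI. Without thinning the shares were 41.0%, 38.1% and 44.5%, an order that goes against the CPM and follows the deeper D7 CTX cells. At day 2 the mature ratio of -0.15 (-0.31 to 0.01) had an interval across 0, became -0.51 relative to the median gene and 0.047 when every cell had equal weight, so its direction depended on the scaling. Over all kept cells, Cxcr4 stood at 133, 135 and 90.2 CPM. The D7 CTX ratio there was -0.56 (-0.61 to -0.51), but 0.034 relative to the median gene, and B lineage cells made up 27.29% of naive and 2.316% of D7 CTX cells.

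Cxcr2, the receptor through which CXCL1, CXCL2 and related ligands call neutrophils from the marrow, was highest in mature neutrophils, with 1039, 1376 and 593 CPM. Immature neutrophils had 316, 512 and 197 CPM and precursors 24.3, 58.8 and 29.96. Thus the D2 CTX level was the highest of the 3 libraries at every stage, and the D7 CTX level was the lowest in mature and immature neutrophils but not in precursors. At equal depth, 65.3%, 70.9% and 47.4% of mature neutrophils had a Cxcr2 UMI, against 0.781%, 2.92% and 0% of B lineage cells. The log2 ratio of D2 CTX over naive was 0.41 (0.34 to 0.48) in mature neutrophils, 0.69 in immature neutrophils and 1.28 (1.01 to 1.55) in precursors. The median gene was itself 0.36 log2 units higher in D2 CTX mature neutrophils, which left 0.044 there and 0.44 in immature neutrophils. At day 7 the ratio was -0.81 (-0.88 to -0.73) in mature and -0.68 in immature neutrophils, and -0.67 in mature neutrophils relative to the median gene. In precursors it was 0.30 (0.09 to 0.52).

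Ccr1, a receptor for CCL3, CCL5 and other CC chemokines on neutrophils and monocytes, was likewise highest at day 2, and its D7 CTX level was the lowest of the 3 libraries at all 3 neutrophil stages. Mature neutrophils had 666, 1012 and 345 CPM, immature neutrophils 245, 430 and 119, and precursors 39.0, 99.1 and 25.2. The share of mature neutrophils with a Ccr1 UMI at equal depth was 46.5%, 61.1% and 31.6%, with 0.26%, 2.33% and 0.529% of B lineage cells as background. D2 CTX was above naive by 0.60 (0.52 to 0.69) in mature neutrophils, 0.24 relative to the median gene, and D7 CTX was below naive by a log2 ratio of -0.95 (-1.04 to -0.85), -0.81 relative to the median gene. Ccr1 was also higher at day 2 in Ly6c2-high monocytes, with 70.8, 156 and 73.6 CPM, a D2 CTX ratio of 1.14 (0.86 to 1.43). Of the 74 D2 CTX cells in that class, 14 remained when the marker levels of all gates were doubled. The B lineage background of Ccr1 was 0.775 CPM in cycling and 6.58 in other cells of naive BM, and 4.26 and 26.8 in D2 CTX BM. Basophil and mast cell precursors carried 175, 236 and 194 CPM.

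Ccrl2, which presents chemerin and does not signal, stood far lower, at 56.8, 59.7 and 18.9 CPM in mature neutrophils. The naive and D2 CTX levels overlapped within counting error. D7 CTX was lower than naive by a log2 ratio of -1.58 (-1.97 to -1.21), -1.44 relative to the median gene, and 4.82%, 6.49% and 2.41% of mature neutrophils had a UMI at equal depth. Of the 4 receptors that passed the low-count filter in mature neutrophils, Ccrl2 alone was at least 1 log2 unit lower at day 7, where 3% of all genes tested were that far apart and 2.32% lower, and the median of the 4 was -0.88 against -0.14 over all genes. In that comparison Ccrl2 reached the 20 CPM that the filter asks for in naive BM alone. At day 2 none of the 4 was 1 log2 unit apart, against 5.22% of all genes. In immature neutrophils 1 of 3, Ccr1 at -1.04 (-1.15 to -0.92), was that far apart at day 7, against 1.59% of all genes, and none of 3 at day 2, against 2.59%. In precursors 2 of 3, Cxcr2 and Ccr1, were that much higher at day 2, against 3.3% of all genes, and none of 3 at day 7, where 0.561% of all genes were that far apart. The B lineage background was not subtracted for these counts. Its Cxcr2 level was 2.79 CPM in cycling and 10.3 in other cells of naive BM, against 6.39 and 28.8 in D2 CTX BM.

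The balance of exit to retention receptor in a neutrophil was described by the ratio of Cxcr2 to Cxcr4 UMIs in the same cells, which needs no library total. In mature neutrophils it was 4.28 (3.91 to 4.68), 6.29 (5.81 to 6.82) and 3.81 (3.53 to 4.12). The D2 CTX interval lay above both others, whereas naive and D7 CTX overlapped. Immature neutrophils had ratios of 1.74, 2.78 and 1.59. Thus both receptors were lower in mature and immature D7 CTX neutrophils, with their ratio close to naive. Precursors were not part of this ratio, and their Cxcr2 was higher at day 7, at 0.30 (0.09 to 0.52).

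**Figure D2:**
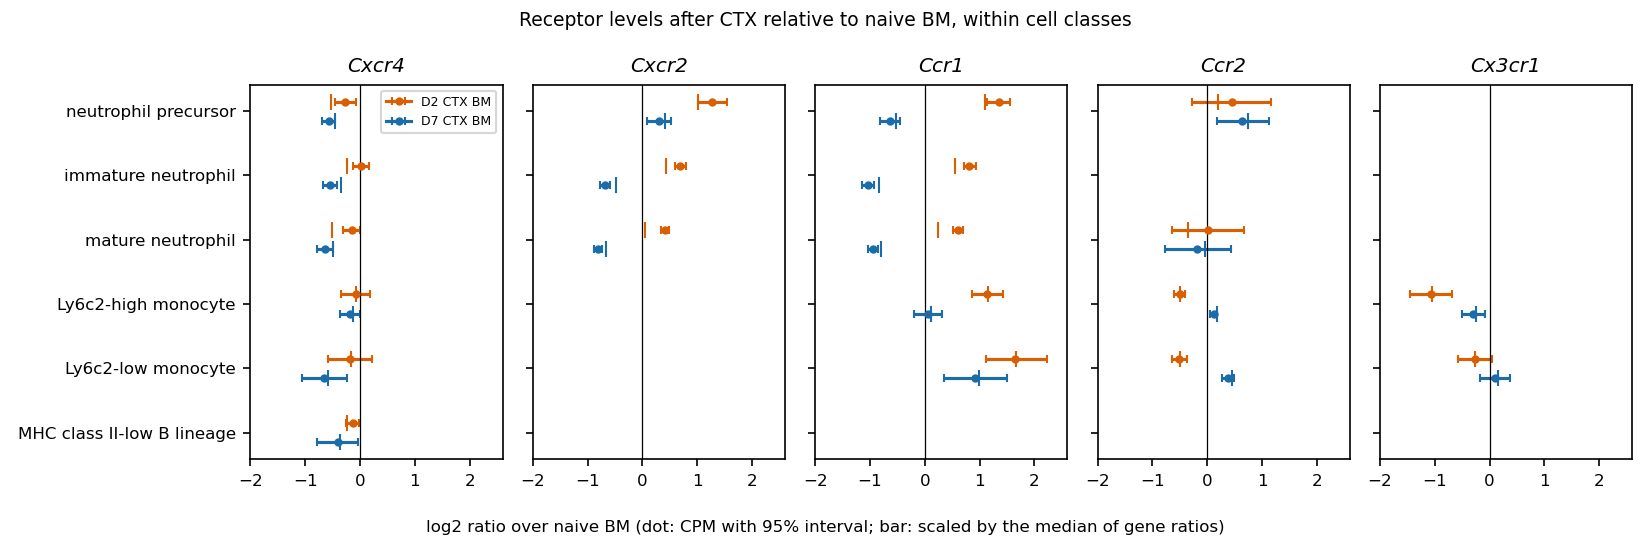
Log2 ratio of D2 CTX and D7 CTX over naive BM for Cxcr4, Cxcr2, Ccr1, Ccr2 and Cx3cr1 in 6 sets of cells (dots, with 95% intervals for counting error), where each library had at least 20 UMIs, with vertical bars at the value relative to the median gene. Cxcr2 and Ccr1 in neutrophils lay to the right of 0 at day 2, with the mature Cxcr2 value at 0.044 relative to the median gene, and to the left at day 7 in mature and immature neutrophils, while Cxcr4 lay to the left at day 7 in all 3 neutrophil stages.

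The make-up of a neutrophil class can itself differ between libraries, so immature and mature neutrophils were pooled and divided into 5 bins by the UMIs per 10000 of specific granule genes (Ltf, Camp, Ngp and others), which are transcribed at intermediate stages and silenced as cells mature. From the most to the fewest granule UMIs, Cxcr2 was higher in each next bin, from 217 to 1407, from 378 to 2166 and from 155 to 895 CPM. Ccr1 had the same course, from 191 to 916, from 341 to 1706 and from 95.3 to 544 CPM. Ccrl2 was highest in the cells with under 20 granule UMIs, at 122, 180 and 61.8 CPM there against 2.84, 4.92 and 2.93 in those with 600 or more. Cxcr4 did not follow this course: from most to fewest granule UMIs it went through 161, 225, 270, 271 and 180 CPM in naive BM, and its last bin also lay below the one before in D7 CTX BM (102 after 157), while in D2 CTX BM they overlapped within counting error (207 after 234). The highest value of the retention receptor thus lay in the third or the fourth bin of each library, and those of the receptors of exit in the last. The Cxcr4 intervals overlapped from the second to the fourth bin in naive and D7 CTX BM. In D2 CTX BM they overlapped from the second to the last, so no highest bin could be told there.

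Within every bin the D7 CTX level of Cxcr4 lay below naive, with log2 ratios from -0.51 to -0.82, and so did those of Cxcr2 (-0.49 to -0.79) and Ccr1 (-0.73 to -1.002). At day 2 the ratios within bins were 0.31 to 0.80 for Cxcr2 and 0.32 to 0.90 for Ccr1. A list of late neutrophil genes that no gate used (Il1b, Clec4d, Adam8, Csf3r and 5 others) moved in the same order as Cxcr2 and Ccr1, with 6554, 8182 and 4803 CPM in mature neutrophils and 2428, 3478 and 1945 CPM in immature ones. Its part in the receptor values was not tested.

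**Figure D3:**
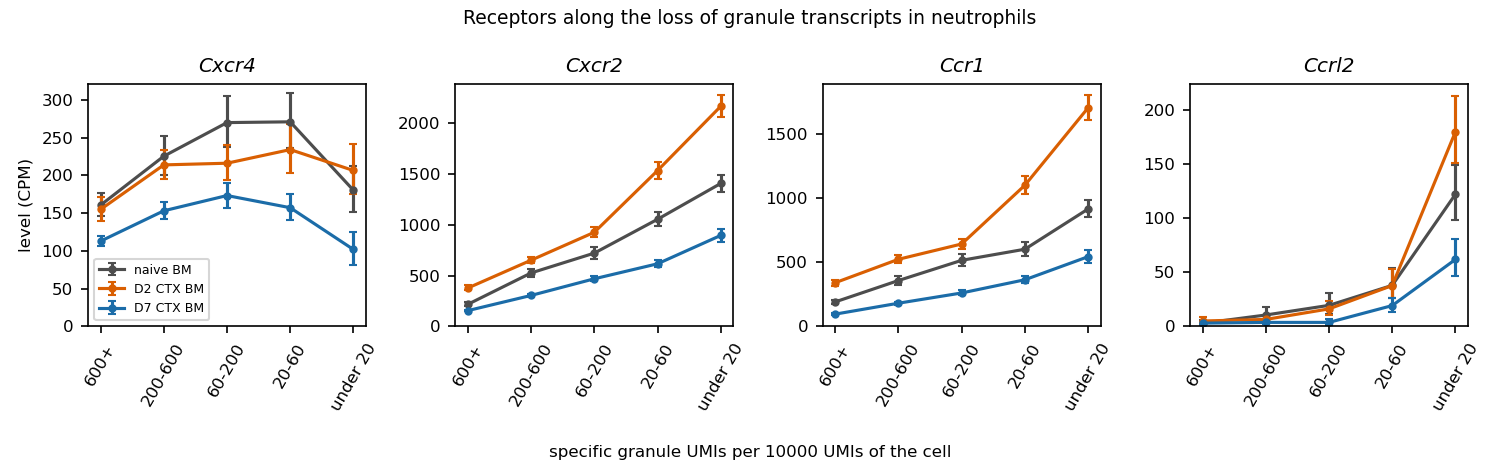
Levels of Cxcr4, Cxcr2, Ccr1 and Ccrl2 in CPM in immature and mature neutrophils of naive, D2 CTX and D7 CTX BM, in 5 bins from most to fewest specific granule UMIs per 10000, with 95% intervals for counting error. Cxcr2, Ccr1 and Ccrl2 were highest in the last bin of each library, whereas Cxcr4 was lower there than in the bin before, at 180 against 271 CPM in naive and 102 against 157 in D7 CTX BM, with overlapping intervals in D2 CTX BM.

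Ccr2, which classical monocytes need to leave the marrow, stood at 1092, 773 and 1187 CPM in Ly6c2-high monocytes, over 375, 74 and 533 cells. MHC class II-rich myeloid cells had 1296, 1233 and 1172 CPM, NK cells 616, 789 and 479, and plasmacytoid dendritic cells 332, 350 and 332. At equal depth 66.0%, 52.1% and 63.9% of Ly6c2-high monocytes had a Ccr2 UMI, against 0.26%, 0.519% and 1.06% of B lineage cells. The log2 ratio in Ly6c2-high monocytes was -0.50 (-0.60 to -0.40) for D2 CTX, whereas for D7 CTX it was 0.12 (0.06 to 0.18). The day 2 value did not hold under a stricter gate. Near the gate lay 50% of the D2 CTX cells against 16.8% in naive BM, and with all gates doubled the class held 18 D2 CTX cells, 14 of them among the original 74, and the ratio became 0.49. The D2 CTX cells were also deeper, with a median of 13842 UMIs against 6727 in naive, and 55.4% of them met the cycling gate against 32.5%, and the part of each in the value was not tested.

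Cx3cr1, the fractalkine receptor that rises as classical monocytes turn into patrolling ones, was highest in Ly6c2-low monocytes (195, 162 and 208 CPM) and MHC class II-rich myeloid cells (174, 226 and 103 CPM), whose intervals overlapped in naive and D2 CTX BM. Ly6c2-high monocytes had 113, 54.2 and 92.1 CPM. The log2 ratio there was -1.06 (-1.45 to -0.69) for D2 CTX, over 70 UMIs, and -0.30 (-0.51 to -0.09) for D7 CTX. As for Ccr2, the day 2 value did not hold with the gate doubled, where it was 0.076. In Ly6c2-high monocytes at day 2, 1 of 4 receptors that passed the filter was at least 1 log2 unit higher (Ccr1) and 1 lower (Cx3cr1), against 3.55% of all genes apart in either direction. Both calls rest on the 74 D2 CTX cells of the class. At day 7 none of 5 was that far apart, against 0.407%. Cxcr4 stood at 137, 129 and 121 CPM in Ly6c2-high monocytes and did not differ beyond counting error, with ratios of -0.083 at day 2 and -0.18 (-0.37 to 0.004) at day 7.

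Cycling and other monocytes differed in these receptors. Ly6c2-high monocytes that met the cycling gate had 220 CPM of Cxcr4 in naive BM against 62.0 in those that did not, a log2 ratio of 1.83 (1.49 to 2.17), 145 against 73.1 on day 2 and 179 against 71.4 on day 7. Cx3cr1 had the opposite order, with 37.5 against 181, 36.8 against 115 and 43.7 against 132 CPM. Ccr2 was lower in cycling cells too, at 736 against 1414, 541 against 1584 and 818 against 1493 CPM. In contrast, Cxcr4 in neutrophil precursors hardly differed by cycling in naive BM (88.8 against 97.5 CPM, a ratio of -0.14), and in the B lineage the cycling cells had less of it. Cycling cells were deeper, with a median of 12119.5 against 5936 UMIs in naive Ly6c2-high monocytes, and the part of depth or of the stage at which cells divide was not tested.

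Ccr7, which guides B, T and dendritic cells to lymph nodes, was highest in T cells (144, 191 and 129 CPM) and MHC class II-high B lineage cells (132 and 150 CPM in naive and D2 CTX BM, with no UMI in the 6 such cells of D7 CTX BM). MHC class II-low B lineage cells had 43.0, 85.6 and 23.8 CPM, a D2 CTX ratio of 0.99 (0.67 to 1.33), and cycling B lineage cells 21.3, 6.39 and 24.6. In the MHC class II-low B lineage cells none of the 2 receptors past the filter was called at day 2 and none of 1 at day 7, against 2.86% and 4.13% of all genes. Over all kept cells there were 457, 742 and 82 Ccr7 UMIs, a log2 ratio of 1.14 at day 2 and -3.04 (-3.40 to -2.70) at day 7, or -2.44 relative to the median gene, beside B lineage shares of 27.29%, 25.51% and 2.316% of the kept cells. No Ccr7 UMI was seen in immature neutrophils at 1000 UMIs per cell, 0 of 936 cells in naive BM. Over all kept cells of D2 CTX BM, 3 of the 6 receptors past the filter, Cxcr2, Ccr1 and Ccr7, were at least 1 log2 unit higher, against 5.4% of all genes, with a median of 0.87 against 0.17. Of these 6, Ccr7 and Ccrl2 reached the 20 CPM that the filter asks for in D2 CTX BM alone. The count and the median thus depend in part on the filter. The cell mix moved with Cxcr2 and Ccr1: mature neutrophils were 14.6% of naive and 21.8% of D2 CTX cells, and the late neutrophil genes summed to 994 and 1943 CPM over all kept cells. It also moved with Ccr7: T cells numbered 130 of 7104 kept cells in naive and 299 of 6126 in D2 CTX BM. MHC class II-high B lineage cells numbered 311 and 500. T and NK cells held 11.8% and 23.7% of the Ccr7 UMIs. The part of the cell mix in these values was not tested. At day 7 none of the 4 receptors past the filter was at least 1 log2 unit apart, against 23.7% of all genes. Ccr7, with its ratio of -3.04, was not among these 4, since it lay under 20 CPM in both libraries.

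Cxcr3, the receptor for the interferon-induced CXCL9 and CXCL10, had its highest levels in 3 classes of whole BM. Plasmacytoid dendritic cells had 86.3, 82.5 and 133 CPM, over 66, 90 and 68 UMIs, T cells 84.5, 78.6 and 166, and NK cells 65.1, 62.1 and 64.5. The levels of the 3 classes overlapped in naive as in D2 CTX BM, and in D7 CTX BM plasmacytoid dendritic cells lay above NK cells. Few Cxcr3 UMIs lay in other named classes, with 20 in monocytes and 19 in the neutrophil lineage of D7 CTX BM. In plasmacytoid dendritic cells D7 CTX was above naive by 0.63 (0.12 to 1.14), and the D7 CTX value of T cells rested on 10 cells.

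In the sorted monocytes the question was whether the receptors of classical monocytes differ between CTX-treated and naive BM. Cells with the gate of another lineage were removed, 1.96% of naive and 3.198% of CTX cells, leaving 1854 and 2482. The azurophil gate was not among those gates, so 7 naive and 41 CTX cells classed as GMP stayed in the set. Cxcr4 stood at 57.9 CPM in naive and 68.9 in CTX cells, over 1271 and 1925 UMIs, and Cx3cr1 at 68.7 and 52.9 CPM, over 1509 and 1478 UMIs. The log2 ratio of CTX over naive was 0.25 (0.15 to 0.35) for Cxcr4 and -0.38 (-0.48 to -0.27) for Cx3cr1, so that the ratio of Cxcr4 to Cx3cr1 UMIs was 0.842 (0.781 to 0.908) in naive and 1.30 (1.22 to 1.40) in CTX cells. The Cxcr4 difference was held by cycling cells, which made up 30.9% of naive and 38.4% of CTX cells: among them the ratio was 0.37 (0.24 to 0.50), and among the others -0.17 (-0.35 to 0.01). For Cx3cr1 it was below 0 in both, at -0.41 and -0.24. Whole BM did not show this order of Cxcr4: its cycling Ly6c2-high monocytes had 220 CPM in naive and 179 in D7 CTX BM, over 311 and 370 UMIs. The reason for the opposite order was not tested. In the sorted monocytes Ccr2 stood at 1042 and 974 CPM, a ratio of -0.10 (-0.12 to -0.07), and Ccr1 at 84.8 and 63.3 CPM, a ratio of -0.42 (-0.52 to -0.33).

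Ccrl2 had the widest difference of the receptors. It stood at 180 CPM in naive and 44.3 in CTX sorted monocytes, over 3944 and 1237 UMIs, a log2 ratio of -2.02 (-2.11 to -1.93). Of the 5 receptors past the filter, Ccrl2 alone was at least 1 log2 unit apart, against 0.829% of all genes in either direction and 0.738% lower in CTX cells. The median of the 5 was -0.37 and that of all genes tested 0.028. At 4000 UMIs per cell 42.8% of naive and 15.7% of CTX cells had a Ccrl2 UMI, and without thinning 60.2% and 27.6%. The ratio was -2.14 in Ly6c2-high and -1.77 in Ly6c2-low cells, and -1.84 in cycling and -1.91 in other cells. In Ly6c2-high monocytes of whole BM Ccrl2 stood at 35.2 CPM in naive and 25.3 in D7 CTX, so the level of 167 CPM in naive sorted Ly6c2-high cells, set beside it, came from a library made after staining and sorting, whose part in the level was not tested. Cxcr2 had 8 and 14 UMIs and Cxcr3 35 and 40 in the sorted monocytes, and Ccr7 had none in either.

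NeuMo are defined by the azurophil granule genes Mpo, Elane, Prtn3 and Ctsg, and the sorted cells were therefore divided into 5 bins of their UMIs per 10000. Cx3cr1 went down along the bins, from 126 CPM in cells with under 1 such UMI to 79.3, 27.0, 20.6 and 8.08 in naive, and from 103 to 72.8, 30.8, 12.6 and 8.13 in CTX cells. Ccr2 went from 1445 to 284 CPM in naive and from 1391 to 225 in CTX cells. Both receptors of monocyte exit and patrol were thus lowest where azurophil transcripts were highest. Cxcr4 went from 48.6 to 59.4, 62.8 and 66.5 CPM over the first 4 bins of naive cells and from 46.2 to 60.8, 84.2 and 89.5 in CTX cells, and was 43.1 and 55.7 CPM in the last bin, which held 35 and 101 cells. In the sorted cells classed as GMP it was 42.5 CPM in naive and 17.6 in CTX cells, over 6 and 12 UMIs. Azurophil-high monocytes had 43.2 and 79.6 CPM of Cxcr4. Cells with at least 20 azurophil UMIs had a log2 ratio to those with under 1 of 0.35 (0.10 to 0.61) for Cxcr4 in naive and 0.80 (0.57 to 1.04) in CTX cells, against -2.79 and -3.18 for Cx3cr1. Those cells were deeper, with medians of 19204 against 8852 UMIs in naive cells, and most of them cycled: 157 of the 176 naive cells in the fourth bin met the cycling gate, against 47 of 639 in the first. Among naive cells that did not cycle, Cxcr4 was 44.0, 45.8 and 37.6 CPM in the first 3 bins and Cx3cr1 132, 92.9 and 33.7. Among such CTX cells, Cxcr4 was 36.6, 37.5 and 47.0 CPM and Cx3cr1 112, 86.3 and 51.3. Without cycling cells Cx3cr1 was thus still lower in each next bin, while the intervals of Cxcr4 overlapped between the first and the third bin.

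**Figure D4:**
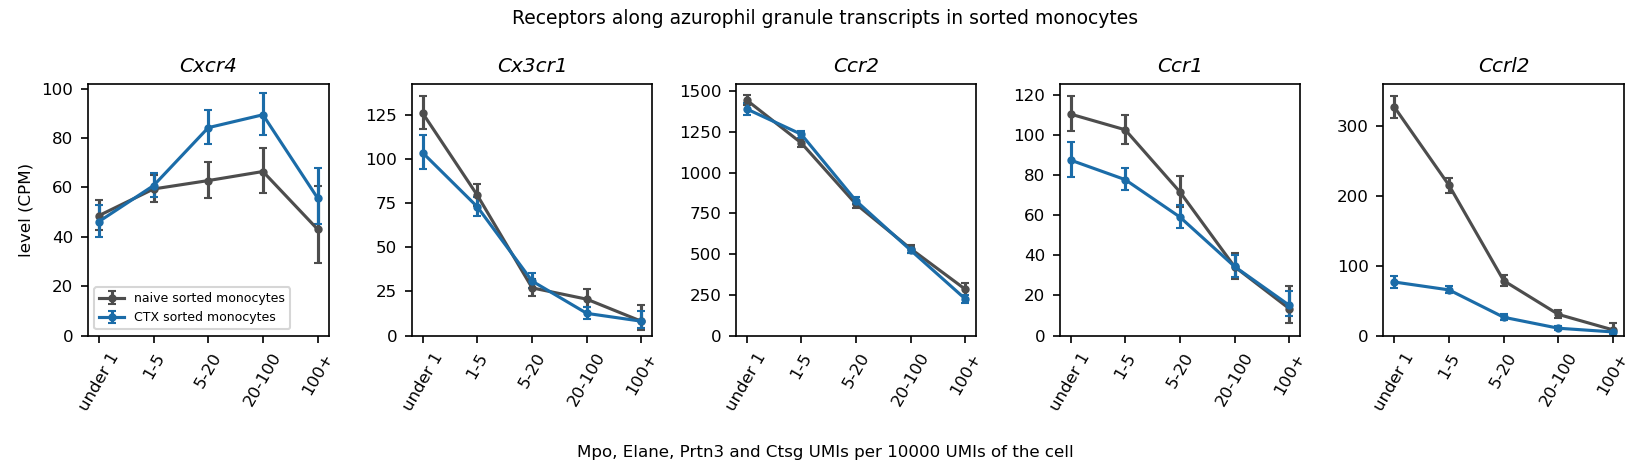
Levels of Cxcr4, Cx3cr1, Ccr2, Ccr1 and Ccrl2 in CPM in naive and CTX sorted monocytes, in 5 bins of azurophil UMIs per 10000 (under 1, 1 to 5, 5 to 20, 20 to 100, and 100 or more), with 95% intervals for counting error. Cx3cr1, Ccr2, Ccr1 and Ccrl2 went down from the first to the last bin in both libraries, Cxcr4 was highest in the fourth bin, and Ccrl2 lay below naive in CTX cells of the first 4 bins.

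Within bins, the CTX level of Cxcr4 was close to naive in the first and second (log2 ratios of -0.073 and 0.033) and above it in the third at 0.42 (0.22 to 0.63) and the fourth at 0.43 (0.19 to 0.67). The Ccrl2 ratio was -2.09, -1.72, -1.58 and -1.53 in the first 4 bins and -0.63 in the last. Ccr2 lay between -0.055 and 0.064 in the first 4 bins and at -0.34 (-0.58 to -0.089) in the last, which held 35 naive and 101 CTX cells. Cells classed as GMP had 220 and 63.0 CPM of Ccr2 in the naive and CTX sorts, over 7 and 41 cells. Azurophil-high monocytes had 299 and 329 CPM, over 28 and 62 cells. The last bin thus mixed both classes, and its ratio is not one of monocytes alone. The summed level of the azurophil genes was 1584 CPM in naive and 2766 in CTX sorted monocytes, and cells with at least 20 of their UMIs numbered 211 of 1854 and 402 of 2482.

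Detection of both surface markers in the same cell was counted at 4000 UMIs per cell, over 1747 naive and 2330 CTX cells, with 107 and 152 shallower cells left out. Cells with Cxcr4 and without Cx3cr1 made up 14.7% (13.1 to 16.5) of naive and 18.3% (16.7 to 19.9) of CTX cells, and cells with Cx3cr1 and without Cxcr4 20.9% and 16.4%. Those with both were 3.84% and 2.49%, where the product of the single shares was 4.59% and 3.91%, and 60.6% and 62.9% had neither at this depth. Along the azurophil bins the share with Cxcr4 alone went from 11.5% to 24.9% of naive cells and from 12.2% to 27.9% of CTX cells between the first and the fourth. The share with Cx3cr1 alone went from 30.3% to 5.33% and from 25.9% to 3.53%. A cell with no UMI of a receptor may still carry its transcript, and protein on the surface was not measured in these libraries.

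**Figure D5:**
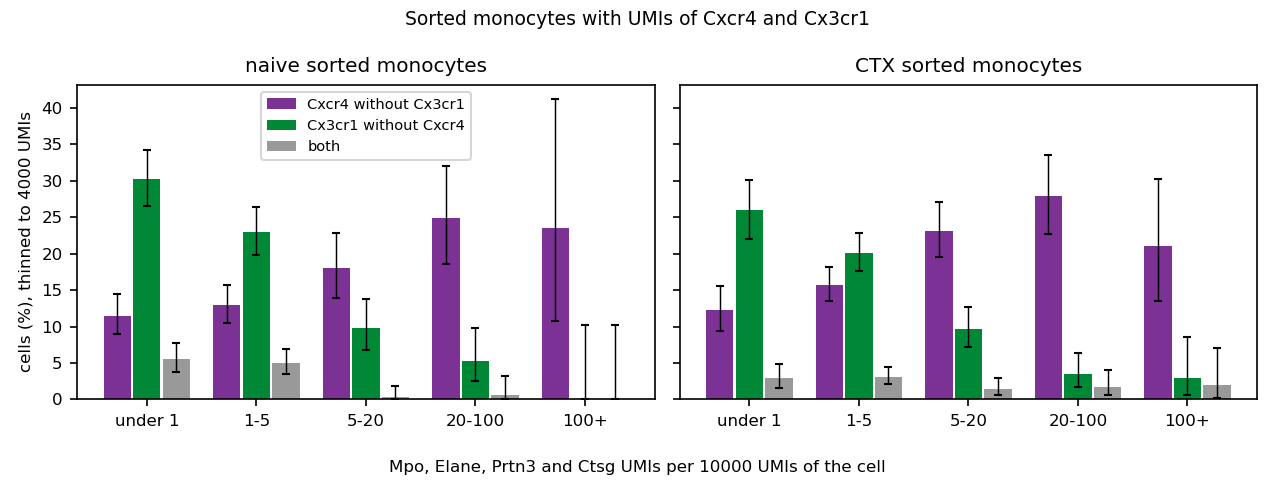
Share of sorted monocytes, in percent at 4000 UMIs per cell, with Cxcr4 and no Cx3cr1 UMI, with Cx3cr1 and no Cxcr4 UMI, and with both, in 5 bins of azurophil UMIs per 10000, with exact binomial intervals. In both libraries the cells with Cx3cr1 alone outnumbered those with Cxcr4 alone in the first bin, and the order was turned from the third bin on.

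Other genes of the pathway were taken from lists of 17 other chemokine receptors, 21 ligands, 22 signalling and desensitization genes and 15 further genes of retention and exit. In sorted monocytes no other receptor passed the filter. Of 7 ligands that passed, 5 were at least 1 log2 unit lower in CTX cells, where 0.738% of all genes were, with a median of -1.09 against 0.028 over all genes. The lowest were Cxcl1 and Cxcl2, ligands of CXCR2, and Ccl2, the ligand of CCR2. Cxcl2 had 890 CPM in naive and 43.8 in CTX cells, Cxcl1 464 UMIs in naive and 2 in CTX cells, and Ccl2 306 and 109 CPM. Cxcl1 met the filter through the naive cells alone. Ccl3 (850 and 405 CPM) and Ccl4 (93.7 and 43.4 CPM), the first a ligand of CCR1, were lower as well. None of the 21 signalling and 11 retention genes that passed was that far apart. Cxcl2 in naive Ly6c2-high monocytes was 40.9 CPM in whole BM and 890 CPM in naive sorted monocytes, values of different preparations set side by side.

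In whole BM, Cxcl2 was lower in D7 CTX mature neutrophils, at 730 CPM in naive and 248 in D7 CTX, a log2 ratio of -1.56. Of the retention genes over all kept cells, 5 of 14 were at least 1 log2 unit higher in D2 CTX BM, against 5.4% of all genes, among them Csf3r, the receptor of granulocyte colony-stimulating factor, at 86.4 and 215 CPM. The share of mature neutrophils moved with them, from 14.6% to 21.8% of kept cells, and its part in these values was not tested. Of the signalling genes 1 of 20, Rgs1, was that much higher, a share near the 5.4% of all genes. Cxcl12, the ligand of CXCR4, stood at 12.3 CPM in naive and 60.2 in D2 CTX BM. Its UMIs came from few cells: 510 of the 565 in naive BM lay in 10 cells, 1399 of 2044 in D2 CTX BM and 319 of 346 in D7 CTX BM, and 73.3%, 80.5% and 62.7% of them lay in cells with no class or with more than 1 gate. No Cxcl12 UMI was found in either sorted library.

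Finally, the genes most like each receptor were listed over 37 profiles of library and class, by Pearson's r on a log2 scale, as a description of profiles that share libraries. Cxcr4 had the loosest companions, 2900093K20Rik (0.805), Nedd9 (0.774) and Grk2 (0.768), the last a kinase that desensitizes chemokine receptors. Cxcr2 went with Adam8 (0.962), Il1f9 (0.957) and AC110211.1 (0.953), and Ccr1 with Lilrb4a (0.938), Mocos (0.932) and the chemokine gene Cxcl2 (0.926). Ccrl2 went with Pla2g7 (0.861), Metrnl (0.843) and Sirpb1a (0.841). Cx3cr1 went with Pid1 (0.975), Zfyve9 (0.951) and Clec4a3 (0.951), and Ccr2 with Ccdc102a (0.938), Raph1 (0.937) and Fam105a (0.931). Ccr7 went with S1pr1 (0.937), the sphingosine-1-phosphate receptor of lymphocyte exit, Gdf11 (0.937) and Dusp10 (0.936). Cxcr3 went with Sla2 (0.957), Klrd1 (0.922) and Cd28 (0.918), genes of NK and T cells.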

How the data were processed

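Single-cell 3′ libraries used the V3 chemistry of 10x Genomics. Per the labels the authors processed reads with Cell Ranger 3.1 on build mm10. The authors deposited raw UMI counts per gene and barcode, without normalization, and these counts were used for all values. Seurat 5 is also named in the submitters' processing notes, and its output was not used here. In each library the files held fewer barcodes than the cells counted in the study's text. The annotation release used for counting was not given in the sources used here. The ATAC-seq, flow cytometry and patient data were not analysed here.

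Kept cells had 200 or more detected genes and a mitochondrial UMI share under 20%. Cells were assigned by gates on summed marker UMIs per 10000 UMIs, with at least 3 marker UMIs: B lineage genes 15, T cell genes 20, NK genes 15, globins 100, plasma cell genes 100, basophil and mast cell genes 20, plasmacytoid genes 40, C1q genes 20, Mmp8, Mmp9 and Retnlg 40, specific granule genes 200, monocyte genes 30, azurophil genes 100, MHC class II genes 60, proliferation genes 8 and Ly6c2 6. Mature neutrophils met the gate on Mmp8, Mmp9 and Retnlg and not that on specific granule genes, immature neutrophils met both, and precursors the second only. The markers left out the 8 receptors, and the levels were set after the data were seen. No doublet caller was run. The receptors, gene lists, bins and tests were chosen with earlier results of these data known.

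UMIs were summed over the cells of a class and divided by their total (CPM), with exact Poisson intervals. CPM of 3′ UMIs carry no length correction. Log2 ratios had exact conditional intervals, and shares exact Clopper-Pearson intervals at an equal depth of 1000 UMIs (whole BM) or 4000 UMIs (sorted) drawn at random from each cell, leaving out shallower cells. Ratios were also given relative to the median gene, by subtracting the median log2 ratio over the genes that passed the filter on low counts. Over all genes, those with at least 200 UMIs over both libraries and 20 CPM in 1 of them entered the comparison after adding 1 CPM, and a gene was counted when the libraries lay at least 1 log2 unit apart. Cells near a gate lay within 1.5 times of the level that admitted them. The genes named were the 8 receptors, up to 4 with the largest ratios from each list, and the 3 most like each receptor by Pearson's r of log2(CPM + 10) over classes of at least 50 cells. Counting and thinning were tested on simulated data. Python 3.11.15, numpy 2.4.6, scipy 1.17.1, pandas 2.3.3 and matplotlib 3.10.9 were used.

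Alternatives were a cell filter of 500 detected genes and 10% mitochondrial UMIs, gates doubled, cells of more than 1 gate kept, a total without the 20 most abundant genes, the median of gene ratios as the scale, the mean of the cells' CPM, 1 CPM added, subtraction of a background class, other depths or no thinning, a pseudocount of 0.1 CPM and no filter on low counts. A split by the cycling gate was added after the data were seen. Some items of the gene lists are not reported here.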

Additional observations from a re-analysis of the deposited data

Results flagged for a closer look

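For several receptors the sign of the log2 ratio differed between classes under the same contrast, with intervals that both left out 0; the difference between the classes was not tested, and a difference between libraries has no replicate. Ccr2 at day 2 was -0.51 (-0.65 to -0.37) in Ly6c2-low monocytes and 0.36 (0.09 to 0.62) in NK cells, although the first became 0.05 with the gate doubled. Cxcr2 at day 7 was -0.81 (-0.88 to -0.73) in mature neutrophils and 0.30 (0.09 to 0.52) in neutrophil precursors. Ccrl2 had the same pattern, at -1.58 (-1.97 to -1.21) and 0.64 (0.09 to 1.23). Ccr1 at day 7 was -1.04 (-1.15 to -0.92) in immature neutrophils and 0.91 (0.357 to 1.5002) in Ly6c2-low monocytes. Ccr2 in Ly6c2-high monocytes was -0.086 (-0.12 to -0.05) for CTX over naive in the sorted libraries and 0.12 (0.06 to 0.18) at day 7 in whole BM.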

How the results depend on the processing

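No paired analysis was possible because each condition was 1 library with no replicate numbers, and no replicate could be left out. Of 1029 alternative values of 140 log2 ratios of levels, 892 stayed within the counting interval of the reported value and 123 moved out of it. Another 14 changed direction from a reported interval that left out 0. A change of sign from an interval across 0 was not counted among those, and the causes were not tested. With gates doubled, day 2 ratios of Ly6c2-high monocytes became 0.49 for Ccr2 (from -0.50) and 0.076 for Cx3cr1 (from -1.06), Ccr2 became 0.049 in Ly6c2-low monocytes (from -0.51) and -0.13 in GMP (from 2.40), and mature neutrophils gave 0.29 for Cxcr2 and 0.50 for Ccr1. With the stricter cell filter these gave 0.31 and 0.51, without the 20 most abundant genes 0.17 and 0.37, relative to the median of gene ratios 0.044 and 0.24, and with the mean of the cells' CPM 0.68 and 0.93, against 0.41 and 0.60 as reported. Cxcr4 in mature neutrophils at day 2 (-0.15) was -0.39, -0.51 and 0.047 under the last 3. Background subtraction turned Cxcr4 in precursors at day 2 to 0.14 (from -0.27) and Cxcr2 in MHC class II-low B lineage cells to -0.079 (from 1.46). The mean of the cells' CPM gave -0.69 for Cx3cr1 at day 2 (from 0.25) and -0.45 for Cxcr2 at day 7 (from 0.14) over all kept cells, -0.14 for Ccr2 in Ly6c2-high monocytes at day 2, 0.017 at day 7 (from 0.12) and 0.14 for Cxcr4 in sorted monocytes. Scaling by the median of gene ratios over all kept cells at day 7 gave 0.034 for Cxcr4 (from -0.56), 0.52 for Ccr1 (from -0.08, and 0.36 without the 20 genes), 0.072 for Ccrl2 (from -0.52) and 0.14 for Cxcr3 (from -0.45), in mature neutrophils -0.67 for Cxcr2 and -0.81 for Ccr1, and in sorted monocytes -0.13 for Ccr2. In cycling and other sorted monocytes, the split chosen after seeing the data, Cxcr4 was 0.37 and -0.17, Ccr2 -0.038 and -0.043 and Ccrl2 -1.84 and -1.91, Ccr1 was -0.26 in cycling and Cx3cr1 -0.24 in other cells. As log2 ratios of shares between the sorted libraries, Cxcr4 was 0.16 at 4000 and -0.11 at 1000 UMIs per cell, Cx3cr1 -0.39 and -0.087, Ccrl2 -1.45 at 4000, -1.95 at 1000, -1.71 at 2000 and -1.13 without thinning, and both markers together -0.62 at 4000 and -0.11 at 2000 UMIs. The share of mature neutrophils with Cxcr4 at day 7 went from -0.57 to 0.12 without thinning. Without the filter on low counts, genes at least 1 log2 unit apart numbered 113 instead of 46 in sorted monocytes, 1595 instead of 143 and 994 instead of 88 in mature neutrophils at days 2 and 7, and 1591 instead of 113 and 354 instead of 19 in Ly6c2-high monocytes, since more genes of few UMIs were counted. Scaled by the median of gene ratios, mature neutrophils had 60 at day 2. The number of cells limits the D2 CTX Ly6c2-high monocytes (74 cells) and all D7 CTX B, T and NK cells.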

Other observations

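Granulocyte-monocyte progenitors, gated on azurophil genes alone, had 46.1, 59.6 and 54.4 CPM of Cxcr4 in naive, D2 CTX and D7 CTX BM. Their Ccr2 level was 15.1, 79.7 and 17.0 CPM, above Cxcr4 on day 2, where the log2 ratio to naive of 2.40 became -0.13 with the gate doubled. Their progenitor genes Kit and Cd34 summed to 91.4, 121 and 52.9 CPM, over 118, 43 and 317 cells, and the D2 CTX cells also carried 2628 CPM of the immunoglobulin genes Ighm and Ighd against 41.8 in naive. Azurophil-high monocytes had 182, 149 and 139 CPM of Cxcr4 over 18, 6 and 54 cells, and 334, 268 and 324 CPM of Ccr2.

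Basophil and mast cell precursors stood out on the ligand side, with 3601 CPM of Ccl3 and 3753 of Ccl4 in naive BM, the first a ligand of CCR1, and they carried Ccr1 and Cxcr4 (139, 144 and 170 CPM) in all 3 BM libraries. Their Cxcr2 level was 58.2, 264 and 134 CPM over 65, 48 and 24 cells.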
